A study of Homo sapiens with 6 samples.

Results

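The genes of pyrimidine and fluorouracil metabolism described here are *UPP1*, *UMPS*, *TYMP*, *DPYD*, *RRM1*, *RRM2*, *DUT*, *TYMS* and *TK1*. They were chosen by symbol, and they are 9 of the 63677 genes in the count table. RNA was sequenced from cells labelled LoVo, a colorectal cancer cell line, after transfection with 25 nM siRNA for 48 h. The scramble group (3 libraries) received a negative control siRNA, and the *SNHG15* siRNA group (3 libraries) received a mixture of both siRNAs against *SNHG15*, a long non-coding RNA that hosts a small nucleolar RNA. Both groups went through the same lipid transfection, and no library received fluorouracil, so every value is a level in drug-free cells. A single line was sequenced, and both siRNAs were used together, so an effect that only 1 of them had cannot be told apart from an effect of losing *SNHG15*.

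Pyrimidine nucleotides are made from orotate or salvaged from uracil, uridine and thymidine, and then reduced and methylated to supply thymidylate for DNA. Fluorouracil is a uracil analog that uses the same enzymes. *UMPS* and *UPP1* lead it to ribonucleotides that enter RNA, *TYMP* and *TK1* lead it to the deoxynucleotide that inhibits thymidylate synthase (*TYMS*), and *DPYD* starts its breakdown. Ribonucleotide reductase, made of a large subunit (*RRM1*) and a small one (*RRM2*), makes the deoxynucleotides, and *DUT* removes dUTP, so that uracil and fluorouracil are kept out of DNA. *TYMS*, *TK1*, *RRM2* and nuclear *DUT* are textbook genes of proliferating cells, made mostly around S phase.

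The libraries held 3446922 to 10256710 counts, with the lowest total in scramble replicate 3. On the first principal component of log2 CPM (counts divided by library size and TMM factor, on the usual per-megacount scale), which took 47.3% of the variance, the scramble libraries lay from -22.0 to -15.7 and the siRNA libraries at 35.5, 11.6 and 8.86, so siRNA replicate 1 stood apart, and its effect on the members is given with each of them. *SNHG15* was at 290, 277 and 261 CPM in the scramble and 77.2, 83.1 and 87.2 CPM in the siRNA libraries, a log2 fold change of -1.74 (adjusted p = 2.62e-05, edgeR's quasi-likelihood test). The markers went against the label LoVo. Of 10 epithelial markers, *EPCAM*, *KRT19*, *CEACAM5*, *CEACAM6*, *VIL1*, *LGALS4* and *TSPAN8* were at or near 0 in every library, while *KRT8* (46.4 CPM), *KRT18* (23.9 CPM) and *CDH1* (7.52 CPM) were read in the scramble libraries, and the list summed to 76.1 to 91.8 CPM. LoVo is generally described as an EPCAM-positive and CEA-producing line. Summed markers of fibroblasts, blood and endothelium lay between 0.469 and 1.52 CPM. The cells are therefore called here by their label only.

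Because several members are described as growth-regulated, the 150 bases upstream of their RefSeq starts (GRCh38.p14, written 5′ to 3′ along the gene's strand) are shown for the called genes *TYMS*, *DUT* and *RRM2* and, for contrast, for *RRM1* and *TK1*. Capitals mark matches, on either strand, to the E2F words TTTCCCGC, TTTGGCGC and TTTCGCGC and to the NF-Y word CCAAT.
TYMS, chr18:657503-657652, plus strand: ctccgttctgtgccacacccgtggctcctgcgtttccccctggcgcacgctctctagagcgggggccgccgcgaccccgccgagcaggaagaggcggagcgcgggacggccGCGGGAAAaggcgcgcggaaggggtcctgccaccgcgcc
DUT canonical start, chr15:48331279-48331428, plus strand: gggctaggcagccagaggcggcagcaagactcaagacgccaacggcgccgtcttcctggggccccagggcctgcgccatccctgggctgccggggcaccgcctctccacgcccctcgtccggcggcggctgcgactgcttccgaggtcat
DUT downstream start, chr15:48332047-48332196, plus strand: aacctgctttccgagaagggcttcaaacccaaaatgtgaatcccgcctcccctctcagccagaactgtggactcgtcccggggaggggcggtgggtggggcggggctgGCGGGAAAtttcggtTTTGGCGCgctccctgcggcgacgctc
RRM2, chr2:10122589-10122738, plus strand: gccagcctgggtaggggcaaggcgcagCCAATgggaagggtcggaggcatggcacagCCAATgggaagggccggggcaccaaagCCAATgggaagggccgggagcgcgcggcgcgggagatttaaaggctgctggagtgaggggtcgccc
RRM1, chr11:4094535-4094684, plus strand: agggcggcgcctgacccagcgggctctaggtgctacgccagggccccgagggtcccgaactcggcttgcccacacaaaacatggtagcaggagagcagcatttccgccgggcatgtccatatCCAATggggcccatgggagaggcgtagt
TK1, chr17:78187053-78187202, minus strand: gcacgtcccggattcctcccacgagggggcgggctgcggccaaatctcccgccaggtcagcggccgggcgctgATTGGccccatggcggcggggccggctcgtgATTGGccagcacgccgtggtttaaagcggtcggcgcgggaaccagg
The window of *TYMS* held 1 E2F word, TTTCCCGC, on the opposite strand at -39 to -32 from the start. *DUT* has 4 RefSeq starts. No E2F word was found at the canonical one, and the most downstream one held TTTCCCGC at -42 to -35 on the opposite strand and TTTGGCGC at -27 to -20. Among 35116 RefSeq starts, 1.39% held TTTCCCGC and 0.55% TTTGGCGC within 250 bases upstream, and 2.32% held any of the 3 E2F words. *RRM2* held no E2F word but 3 copies of CCAAT, at -123, -93 and -66, in front of its canonical start. CCAAT was common, since 32% of all starts held it, and it was also present in *RRM1* (at -28), *TK1* (at -77 and -46, opposite strand) and *TYMP*. The only RefSeq start of *RRM1* was not matched to the canonical transcript of that gene. The E-box CACGTG, held by 6.34% of starts, and TTTCGCGC, held by 0.439%, were found at no start of a member, and no word was found at those of *UPP1*, *UMPS* or *DPYD*. Such matches are descriptions of these windows and not measured binding sites. The *RRM1* window, with its 1 CCAAT, and the *TK1* window, with 2, belong to genes that were not called. Both windows were picked with the calls known, and whether a word goes with a call was not tested.

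Of the 9 members, 8 passed the filter on low counts, and 3 of these 8 fell with *SNHG15* siRNA (*DUT*, *RRM2* and *TYMS*), with no member called higher. A call is an adjusted p under 0.05 from edgeR's quasi-likelihood test, adjusted after Benjamini and Hochberg across the 12507 genes tested. Over these, 5.36% were called, 2.23% lower and 3.13% higher. The median log2 fold change (siRNA minus scramble) of the 8 members was -0.37, against 0.000497 over all genes tested, and 6 of the 8 had an unadjusted p under 0.05, against 2820 of 12507. The siRNA libraries lay wholly below the scramble libraries for 5 members, which 14.1% of all genes tested did, and wholly above for 1, which 14.7% did. In bulk RNA, fewer cells making a transcript and less of it in each cell cannot be told apart.

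**Figure D1:**
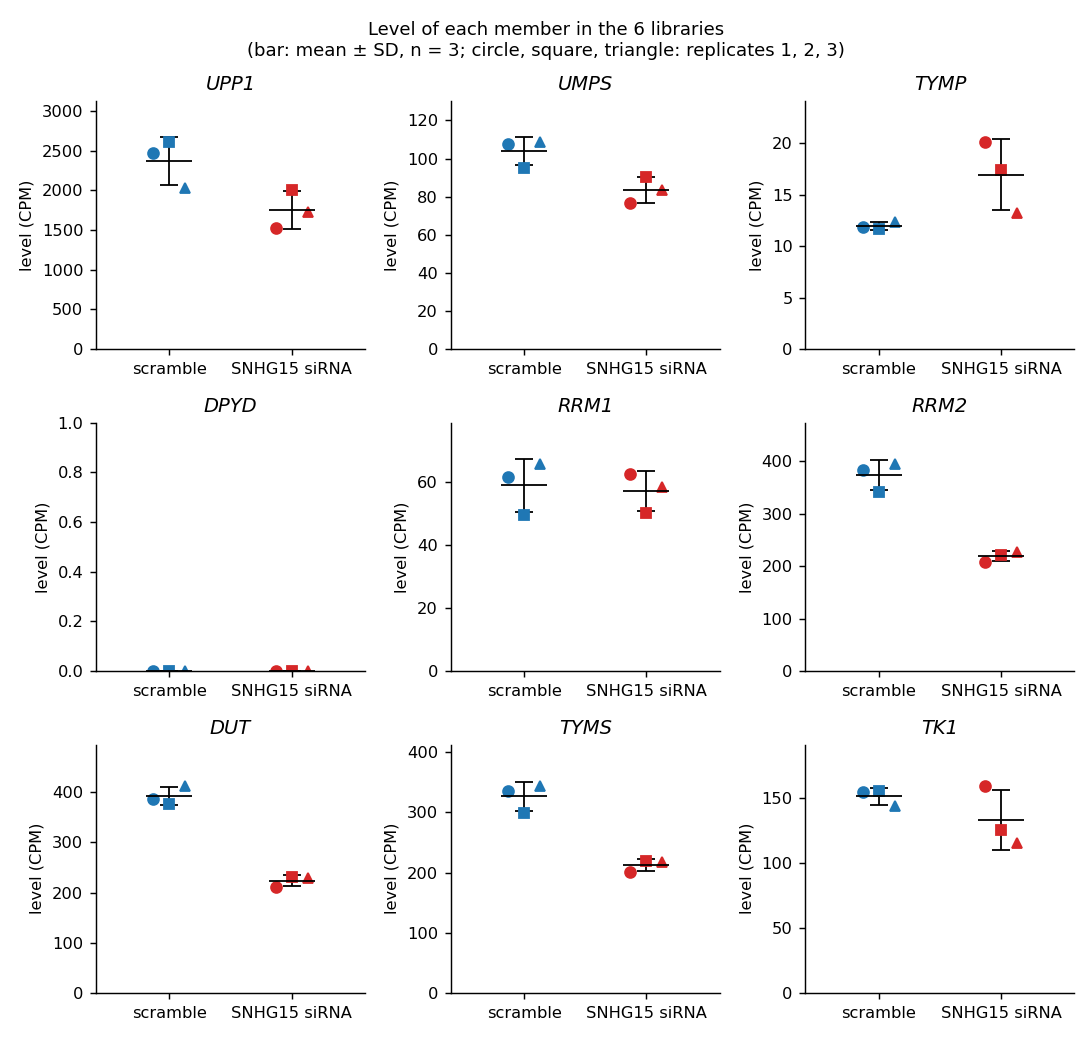
Level of each of the 9 members in CPM (linear axis from 0) in the 3 scramble libraries (blue) and the 3 *SNHG15* siRNA libraries (red), with the mean and SD of each group as bars and the replicate number as the shape of the point. *DUT*, *RRM2* and *TYMS* show the widest gaps beside their spread, *RRM1* and *TK1* overlap between groups, and *DPYD* is at 0 in all 6 libraries.

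Uridine phosphorylase, encoded by *UPP1* (ENSG00000183696, chromosome 7 from 48128225 to 48148333, plus strand; this and the gene positions that follow are on GRCh37), interconverts uracil and uridine. It was the most abundant member per length, at 517 ± 65.5 RPKM (CPM per kilobase of annotated exon; SD, n = 3) in the scramble libraries. Its level was 2465, 2605 and 2029 CPM in the scramble libraries and 1525, 2004 and 1722 CPM in the siRNA libraries. The groups did not overlap, but scramble replicate 3 and siRNA replicate 2 nearly met. The log2 fold change was -0.44 with a standard error of 0.14 and a 95% interval from -0.73 to -0.14, and it did not pass after adjustment (adjusted p = 0.0812, edgeR). With DESeq2 it passed, at -0.45 and an adjusted p of 0.0418, as it did without a filter on low counts. Without siRNA replicate 1 the value was -0.35 (adjusted p = 0.111).

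*UMPS* (ENSG00000114491, chromosome 3 from 124449280 to 124468120, plus strand) makes UMP from orotate and, in the same way, a ribonucleotide from fluorouracil. It was at 108, 95.2 and 109 CPM in the scramble and 76.8, 90.3 and 83.4 CPM in the siRNA libraries. All siRNA values were below all scramble values, with siRNA replicate 2 and scramble replicate 2 nearest to each other. The log2 fold change was -0.31 (standard error 0.12, 95% interval -0.58 to -0.04), and the adjusted p of 0.157 from edgeR did not pass. Without siRNA replicate 1 it was -0.26 (adjusted p = 0.191).

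*TYMP* (ENSG00000025708, chromosome 22 from 50964181 to 50968461, minus strand), the phosphorylase that joins thymine or fluorouracil to deoxyribose, was the only member with a higher value under *SNHG15* siRNA. It was low in this line, at 11.8, 11.6 and 12.4 CPM in the scramble libraries and 20.1, 17.4 and 13.3 CPM in the siRNA libraries. The scramble libraries were close together, and siRNA replicate 3 lay just above them. The log2 fold change of 0.50 (standard error 0.18, 95% interval 0.11 to 0.90) did not pass (adjusted p = 0.126, edgeR), and it was 0.36 without siRNA replicate 1. *ODF3B*, which shares 323 bases of exon with *TYMP* on the same strand, had a log2 fold change of 0.15 (adjusted p = 0.719, edgeR), which ran from 0.050 without scramble replicate 2 to 0.24 without scramble replicate 1, with 0.078 without siRNA replicate 2. How reads shared by both were counted is not given in the sources used here.

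*DPYD* (ENSG00000188641, chromosome 1 from 97543299 to 98460556, minus strand), which encodes the enzyme that starts the breakdown of uracil and fluorouracil, had 0 counts in each of the 6 libraries, 0 of 44583675 in all. A count of 0 allows up to 3 counts, which is 0.298 to 0.907 CPM in a single library and 0.0673 CPM over all libraries. These limits cover counting error only. No difference between the groups was detectable for *DPYD*. The next enzymes of the same route, *DPYS* and *UPB1*, had 1 count each over all libraries.

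The subunits of ribonucleotide reductase work as a complex and had unlike values. *RRM1* (ENSG00000167325, chromosome 11 from 4115937 to 4160162, plus strand) was at 61.6, 49.3 and 65.6 CPM in the scramble libraries and 62.5, 50.1 and 58.5 CPM in the siRNA libraries. The groups overlapped throughout, and the log2 fold change was -0.04 (95% interval -0.36 to 0.28, adjusted p = 0.913, edgeR), a value whose sign changed with the scaling, to 0.0013 with upper-quartile factors. It was -0.10 without siRNA replicate 1 (adjusted p = 0.714, edgeR) and -0.15 without scramble replicate 2. *RRM2* (ENSG00000171848, chromosome 2 from 10260825 to 10351851, plus strand), the small subunit, fell. It was at 384, 341 and 395 CPM in the scramble libraries and 209, 222 and 227 CPM in the siRNA libraries, and the highest siRNA library lay far below the lowest scramble library. The siRNA mean was 58.7% of the scramble mean, a log2 fold change of -0.77 (standard error 0.12, 95% interval -1.03 to -0.51, adjusted p = 0.00507, edgeR). The call held in 6 of 6 alternatives that kept all libraries and in 6 of 6 fits that left out 1 library. Per length, *RRM2* stood at 2.88, 3.20 and 2.78 times *RRM1* in the scramble libraries, and at 1.55, 2.05 and 1.79 times in the siRNA libraries. The lengths are unions of annotated exons, 9153 bases for *RRM2* and 4233 for *RRM1*. The size of the ratio depends on them, and rarely used *RRM2* exons would make it too low. The log2 ratio was lower by 0.73 in the siRNA group, with no overlap. The exact two-sided permutation test gave p = 0.1, the smallest that 3 against 3 libraries allow. This ratio was chosen after the values had been seen, and it leaves out *RRM2B*, another small subunit. The log2 level of *RRM2B*, minus its scramble mean, was -0.07, -0.37 and 0.44 in the scramble libraries. In the siRNA libraries it was -0.46, 0.11 and 0.66. *RRM2B* was also named after its values had been seen.

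*DUT* (ENSG00000128951, chromosome 15 from 48623208 to 48635570, plus strand), the dUTPase, had the smallest p of the members, rank 32 of 12507 genes. It was at 387, 377 and 413 CPM in the scramble libraries and 212, 231 and 229 CPM in the siRNA libraries. The spread within each group was small beside the gap between them. The siRNA mean was 57.1% of the scramble mean, and the log2 fold change was -0.81 (standard error 0.12, 95% interval -1.06 to -0.56, adjusted p = 0.00372, edgeR). *DUT* passed in 6 of 6 alternatives and in 6 of 6 fits without 1 library, with values from -0.83 to -0.77. *DUT* is made as a nuclear and a mitochondrial isoform with different first exons, and the counts per gene do not separate the starts shown above. Its 8 annotated pseudogenes together had 9 counts over all libraries, those of *RRM2* 16 and those of *TYMS* 0.

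*TYMS* (ENSG00000176890, chromosome 18 from 657653 to 673578, plus strand), the enzyme that methylates dUMP to thymidylate and the main target of fluorouracil, also fell. Its level was 336, 299 and 344 CPM in the scramble libraries and 201, 219 and 218 CPM in the siRNA libraries. Again no siRNA library reached the lowest scramble library. The siRNA mean was 65.1% of the scramble mean, and the log2 fold change was -0.62 (standard error 0.12, 95% interval -0.87 to -0.36, adjusted p = 0.0112, edgeR). The call held in 6 of 6 alternatives and was lost without scramble replicate 1 (-0.60, adjusted p = 0.0641) and without scramble replicate 3 (-0.58, adjusted p = 0.0541). *ENOSF1*, which runs against *TYMS* and shares 967 bases of exon with it, was at 79.9 ± 12.2 CPM in the scramble and 68.5 ± 7.93 CPM in the siRNA libraries (SD, n = 3), a log2 fold change of -0.23 (adjusted p = 0.374, edgeR), or -0.13 without scramble replicate 2. The antisense *TYMSOS*, with 193 shared bases, had few reads, 7.86 ± 1.22 and 5.59 ± 0.532 CPM, and a log2 fold change of -0.48 (adjusted p = 0.21, edgeR). Whether the counting used strand is not given in the sources used here, so reads from these overlaps may not have been told apart.

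*TK1* (ENSG00000167900, chromosome 17 from 76170172 to 76183314, minus strand), the thymidine kinase that salvages thymidine and phosphorylates fluorodeoxyuridine, was at 155, 156 and 144 CPM in the scramble libraries. In the siRNA libraries it was at 159, 125 and 115 CPM. siRNA replicate 1 was the highest of all 6 libraries, while the other siRNA libraries were below every scramble library. The log2 fold change was -0.19 (standard error 0.14, 95% interval -0.48 to 0.11, adjusted p = 0.454, edgeR). Leaving out a single library moved it from -0.34 without siRNA replicate 1 (adjusted p = 0.0796, edgeR) to -0.09 without siRNA replicate 3 (adjusted p = 0.776). Without siRNA replicate 1 the members that fell stood at -0.77 for *DUT* (adjusted p = 0.00136), -0.74 for *RRM2* (adjusted p = 0.00222) and -0.58 for *TYMS* (adjusted p = 0.00782), all by edgeR, so these 3 calls did not rest on it.

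**Figure D2:**
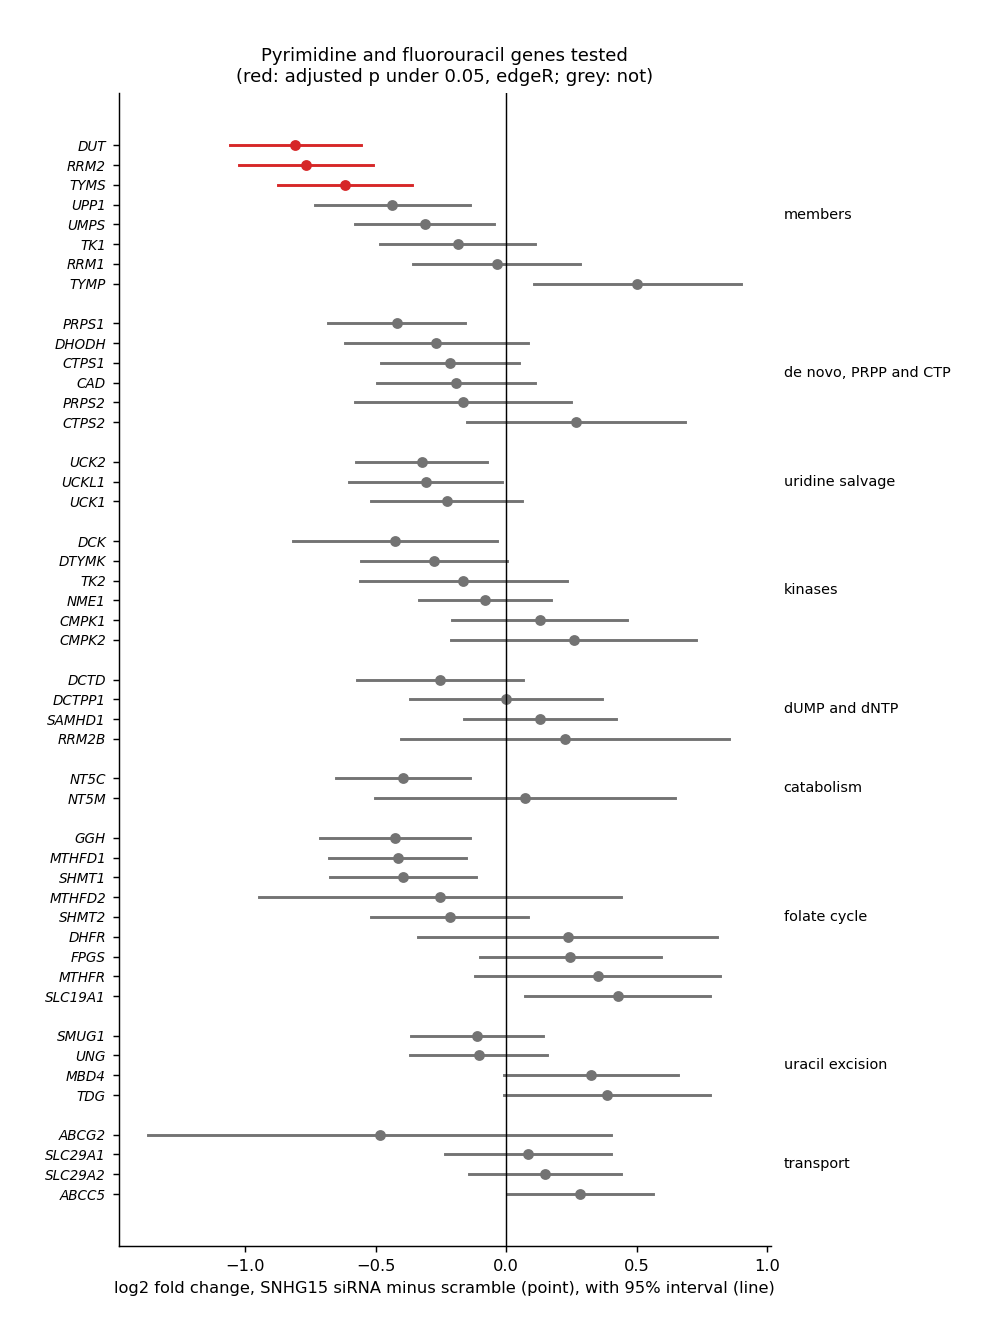
Log2 fold change (*SNHG15* siRNA minus scramble, x axis) of the 8 members tested and of the 38 other pathway genes tested, by group, with the 95% interval as a line; red marks an adjusted p under 0.05 from edgeR over all genes. *DUT*, *RRM2* and *TYMS* are the only red points, between -0.81 and -0.62.

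Ordered by level per length in the scramble libraries, *UPP1* (517 ± 65.5 RPKM) was followed by *TYMS* (135 ± 9.82), *DUT* (107 ± 4.96), *TK1* (82.0 ± 3.60), *RRM2* (40.8 ± 3.13), *RRM1* (13.9 ± 2.01), *UMPS* (13.8 ± 1.00) and *TYMP* (3.32 ± 0.11), all as RPKM with SD and n = 3. Of the neighbours in this order, the levels of *RRM1* and *UMPS* lay within their spread. In the siRNA libraries *DUT* (61.0 ± 2.95 RPKM) came after *TK1* (72.2 ± 12.5 RPKM) and *TYMS* (87.8 ± 4.06 RPKM), and the SD range of *TK1* overlapped those of both, so the order of *DUT* and *TK1* there is not settled. Lengths are the union of annotated exons, 9153 bases for *RRM2* and 1845 for *TK1*, so a gene with long but rarely used exons is placed too low.

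**Figure D3:**
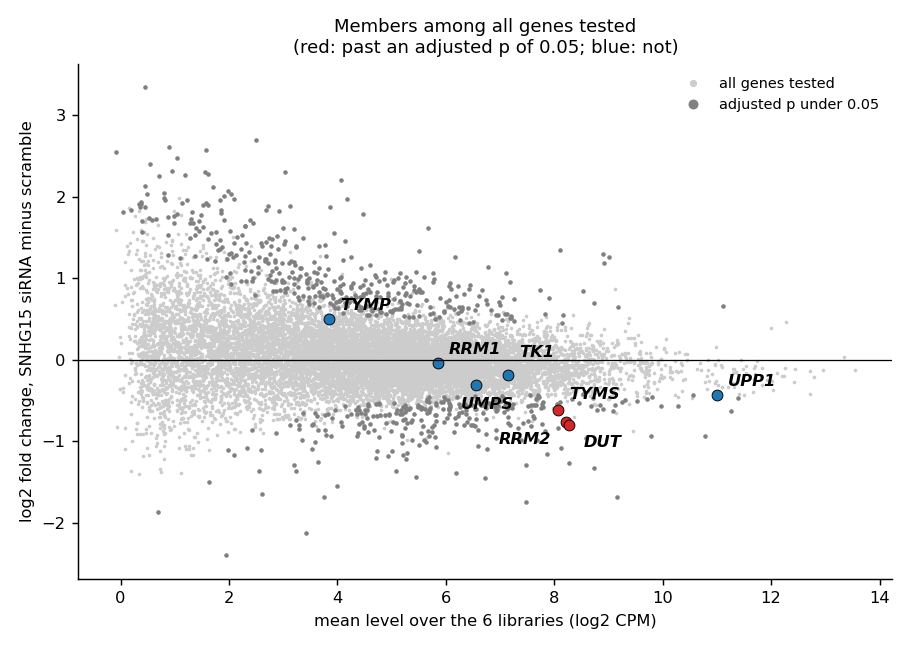
Mean level over the 6 libraries (log2 CPM, x axis) and log2 fold change (*SNHG15* siRNA minus scramble, y axis) of all 12507 genes tested (light grey; dark grey for an adjusted p under 0.05, edgeR), with the members named (red where called, blue where not). *DUT*, *RRM2* and *TYMS* lie together at similar levels and below 0, and *UPP1* is the most abundant member.

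The shape of the *DUT* values over the 6 libraries, each gene centred on its own mean of log2 CPM, was compared with the other genes by the root mean square difference. Of 12482 genes compared, the nearest were *NR2C2AP* (0.0441), *RRM2* (0.0470) and *CYCS* (0.0520), and *TYMS* ranked 25. *UPP1* and *UMPS* ranked 754 and 776. The measure includes the gap between the groups, and it is a description over 6 libraries.

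Of the 44 other genes listed for the pathway, 38 were tested, and 0 passed the adjusted p of edgeR in either direction, with 10 at an unadjusted p under 0.05. DESeq2 called 4 of these 38, beside 761 of the 13118 genes it tested. Their median log2 fold change was -0.14, with values from -0.48 to 0.43, and 22 were lower and 16 higher. The groups did not overlap for 9 lower genes and 3 higher ones. Of all genes tested, 14.1% were lower and 14.7% higher without overlap, and 2820 of 12507 had an unadjusted p under 0.05.

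Upstream of the members, *PRPS1*, which makes the phosphoribosyl pyrophosphate that *UMPS* uses, was at 166, 166 and 165 CPM in the scramble and 114, 139 and 119 CPM in the siRNA libraries. Its log2 fold change was -0.42 (adjusted p = 0.0616, edgeR). It was the gene with the smallest p of 6 in the de novo and CTP group, of which 5 were lower. All 3 uridine and cytidine kinases tested were lower, led by *UCK2*, at -0.32 (adjusted p = 0.123, edgeR), while *UPP2* and *CDA* had 0 counts. Of 6 nucleotide kinases tested, *DCK*, the deoxycytidine kinase, was at -0.42 (adjusted p = 0.186, edgeR), with overlapping groups and values from -0.58 without scramble replicate 2 to -0.28 without scramble replicate 1. *NME2* shares sequence with *NME1* and had only 36 counts in all, so its reads may have been assigned elsewhere.

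Around dUMP, *DCTD*, the deaminase that makes dUMP from dCMP, was at -0.25 (adjusted p = 0.329, edgeR), or -0.12 without siRNA replicate 1, and 3 of the 4 genes in that group had a higher value. Among the breakdown genes, *NT5C*, a nucleotidase for deoxyribonucleotides, was at 181 ± 3.77 CPM in the scramble and 138 ± 11.6 CPM in the siRNA libraries, a log2 fold change of -0.39 (adjusted p = 0.0695, edgeR). In the folate cycle, which supplies the methyl group to *TYMS*, 5 of 9 genes were lower. *MTHFD1* had the smallest p there, from 228 ± 21.9 to 171 ± 5.67 CPM, with a log2 fold change of -0.42 (adjusted p = 0.0626, edgeR).

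Of the genes that remove uracil or thymine from DNA, *MBD4* was at 0.33 (adjusted p = 0.23, edgeR), or 0.20 without scramble replicate 2, and of the transporters *ABCC5*, an exporter of nucleotides, was at 0.28 (adjusted p = 0.219, edgeR). *ABCC5* was at 34.7, 35.7 and 35.7 CPM in the scramble and 44.1, 43.3 and 41.6 CPM in the siRNA libraries. These groups were apart in every library, with a small difference that did not pass the test. The 4 pathway genes that passed by DESeq2, which called 761 of 13118 genes, were *PRPS1*, *GGH*, *MTHFD1* and *NT5C*.

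Genes of S phase are set beside the members that fell. Of 37 tested, 9 were called, 8 lower and 1 higher. Over all genes tested, 2.23% were called lower and 3.13% higher. Of the 37, 32 had a lower value, and the median log2 fold change was -0.36, beside -0.37 for the members. The groups did not overlap for 22 lower and 3 higher genes of this list, beside 14.1% lower and 14.7% higher over all genes tested. The smallest p belonged to *CHAF1B*, a subunit of the chromatin assembly factor (103 ± 3.00 CPM against 58.7 ± 7.72 CPM, SD, n = 3; log2 fold change -0.81, adjusted p = 0.00569, edgeR), and to *CDCA7* (-0.71, adjusted p = 0.00761, edgeR). Of the 37 genes, 1 had a lower fold change than *DUT* and *RRM2*, and 5 had a lower one than *TYMS*. The 1 gene called higher was *ATAD2* (31.6, 17.3 and 28.7 CPM against 66.0, 42.4 and 46.2 CPM; log2 fold change 1.01, adjusted p = 0.0227, edgeR). The *ATAD2* call was lost without scramble replicate 2 and without scramble replicate 3. The other 2 higher genes without overlap were *CCNE2*, cyclin E2 (1.18, adjusted p = 0.0956, edgeR), and *CLSPN*, a replication checkpoint mediator (0.99, adjusted p = 0.0534, edgeR). *CLSPN* passed with DESeq2, upper-quartile factors, no filter, the replicate block and without siRNA replicate 3, and *CCNE2* without a filter. These 3 genes were named after their values had been seen.

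Among 16 mitosis genes, 2 fell, *CCNB2* (cyclin B2, log2 fold change -0.80, adjusted p = 0.00505, edgeR) and *TPX2* (a spindle factor, -0.59, adjusted p = 0.0134, edgeR), and the median of the list was -0.24. Of all genes tested, 2.23% were called lower. The call of *CCNB2* held in 6 of 6 fits that left out 1 library, and that of *TPX2* in 4 of 6. *TOP2A*, named after its values had been seen, was higher with *SNHG15* siRNA, mainly in siRNA replicate 1. It was at 19.3 CPM there, 7.34 and 11.6 CPM in the other siRNA libraries, and 6.56, 7.06 and 5.75 CPM in the scramble libraries (adjusted p = 0.0791, edgeR). It passed only without a filter (log2 fold change 0.92, adjusted p = 0.00217, edgeR) and without siRNA replicate 2 (1.23, adjusted p = 0.0265, edgeR). The share of cells in each phase was not measured in these libraries. In a separate assay with propidium iodide, the paper reports no significant change in the cycle profile of LoVo cells after *SNHG15* knockdown. In other assays it reports that the knockdown significantly lowered proliferation and colony formation of LoVo cells. The part of cell cycle phase or of proliferation in the lower *DUT*, *RRM2* and *TYMS* was not tested here.

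**Figure D4:**
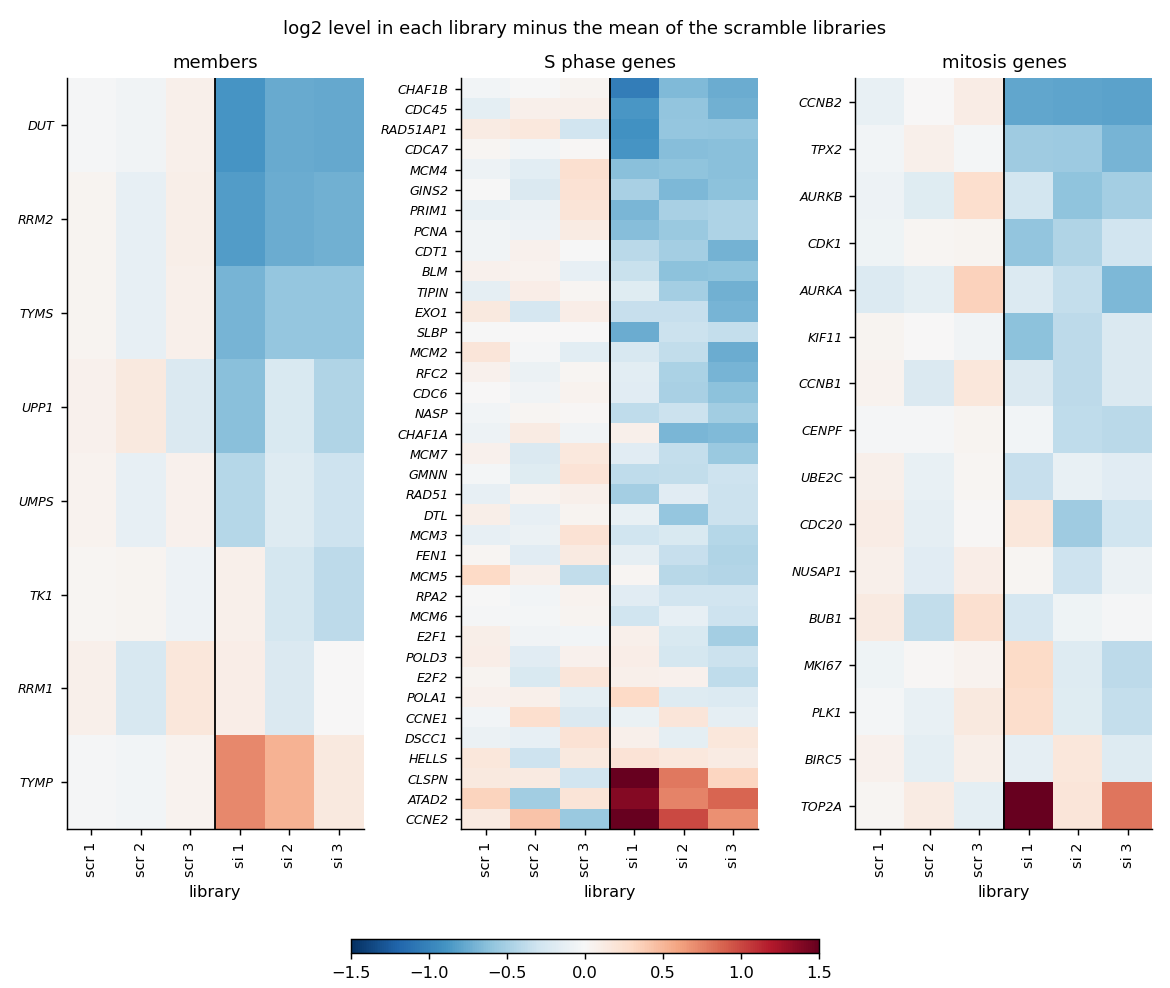
Log2 level in each library minus the mean of the scramble libraries (colour, blue lower and red higher, clipped at -1.5 and 1.5) for the members, the S phase genes and the mitosis genes; scr and si stand for the scramble and *SNHG15* siRNA libraries, with the replicate number. *DUT*, *RRM2* and *TYMS* are blue in all 3 siRNA libraries, like most S phase genes, while *TK1* and *RRM1* are mixed.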

How the data were processed

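RNA was sequenced from 3 scramble and 3 *SNHG15* siRNA libraries, described in the paper as biological replicates. The authors deposited raw read counts by gene, with no normalization. The submitters' processing notes name STAR, featureCounts and hg19, whereas the paper names bowtie2 against hg19. The paper gives a Maxwell kit for the RNA and the labels TRIzol. Library preparation was stranded, and the annotation, strand setting and handling of multiply placed reads are not given in the sources used here. The table held 63677 genes, 23675 with counts, and 0 columns were left unassigned. Library totals lay between 3446922 and 10256710.

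For the tests edgeR 4.0.16 was run in R 4.3.3. Its filterByExpr (minimum count 10, total 15) left 12507 genes. TMM factors were applied, followed by the quasi-likelihood test without a block, and calls were made at an adjusted p of 0.05 (Benjamini-Hochberg). Each standard error is the fold change divided by the root of its F value. CPM used the TMM-scaled library sizes, and RPKM the union of exons in GENCODE release 44 on GRCh37, in which 8012 identifiers had no entry. Those of *UHRF1*, *PECAM1* and *SCO2*, which overlaps *TYMP*, were among the genes not used here. The script was tested on simulated data first. Intervals and limits cover counting error or the spread between libraries only.

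The members and all gene lists were chosen with earlier results of these data known. Beside the members and *SNHG15*, the rule for naming took, from each pathway group, genes past the threshold or else the one with the smallest p, the 3 genes nearest in pattern to the member with the smallest p, overlapping genes and pseudogenes with a mean of 5 counts or more, and 2 genes each from the S phase and mitosis lists. *SEC63P1*, a pseudogene in an intron of *DPYD*, met it with a mean of 5.33 counts but was not tested. Alternatives were DESeq2 1.42.0, RLE and upper-quartile factors, no filter, 10 counts in every library, the replicate number as a block and leaving out each library.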

Additional observations from a re-analysis of the deposited data

How the results depend on the processing

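*DUT*, *RRM2* and *TYMS* kept their direction and their call in all 6 alternatives that keep every library. The number of members called was 3, 4 with DESeq2 and 4 without a filter (*UPP1* being the addition in both), 3 with the replicate block, and 2 to 3 when each library was left out. *RRM1* changed sign, to 0.0013 with upper-quartile factors, and its values with a library left out ran from -0.15 to 0.052, above 0 without scramble replicate 1 (0.0016), scramble replicate 3 (0.037) or siRNA replicate 2. The pathway genes called went from 0 to 4 with DESeq2 and to 3 of 42 tested without a filter. They were 0 to 4 when a library was left out: 4 without siRNA replicate 1 (*TDG*, *MTHFD1*, *NT5C* and *UCKL1*) and 1 without siRNA replicate 3 (*GGH*). The S phase genes called went from 9 to 16 without a filter and 4 to 16 with a library left out, the highest without siRNA replicate 1. The mitosis genes called went from 2 to 5 without a filter and 1 to 4 with a library left out. Over all genes, 671 calls of 12507 tested became 761 of 13118 with DESeq2 and 1312 of 23675 without a filter. With a library left out they ran from 139 of 12658 (without scramble replicate 2) to 812 of 12803 (without siRNA replicate 1). The cause was not tested. Upper-quartile factors gave 515 higher and 230 lower calls, against 392 higher and 279 lower, and no filter gave 685 and 627. Deviations of the same-numbered libraries from their group means correlated at -0.08, 0.18 and -0.06, and not every library correlated best with its own number. With 3 libraries in each group, these values cannot settle whether the replicate numbers pair the libraries. With the replicate block 543 genes, 10 S phase, 2 mitosis and 0 pathway genes were called. At this depth *DPYD* could not be tested.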
